A study of Mus musculus with 11 samples.

Results

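Toll-like receptors (TLRs) and their adaptors were examined in whole fetal livers. The set holds 10 genes, chosen by name and matched to their Ensembl IDs in GRCm38 annotation, out of 52636 genes in each count table. They are the surface receptors Tlr1, Tlr2, Tlr4 and Tlr6, the endosomal receptors Tlr3, Tlr7, Tlr8 and Tlr9, the adaptor Myd88 and the co-receptor Cd14. All 10 were found and all 10 passed the filter on low counts, as did 17243 genes in all. The rule used their names and no measured value, although earlier results of these data were known when the set was proposed.

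RNA was sequenced from 11 single livers of mouse fetuses at E15.5 of gestation: 3 wild-type (WT), 2 lacking Tnfr1 (labelled TNFR1KO, here Tnfr1 KO), 3 lacking Casp8 and Mlkl (Casp8 Mlkl dKO) and 3 lacking Casp8 and Tnfr1 (Casp8 Tnfr1 dKO). The alleles are germline knockouts kept on a C57BL/6 N background, so every cell of the embryo carries them, and no embryo was treated. Caspase-8 restrains necroptosis, a lytic cell death that needs MLKL, and TNFR1 is a receptor for TNF, so Casp8 Mlkl dKO embryos lack both the restraint and the executioner. The comparisons ask what differs in livers that lose caspase-8 and TNFR1 but keep MLKL, relative to each of the 3 control genotypes. Casp8 Tnfr1 dKO and Casp8 Mlkl dKO livers differ at both Tnfr1 and Mlkl. The parts of these genes in a difference between them cannot be told apart.

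TLRs are membrane receptors of innate immunity. TLR1, TLR2, TLR4 and TLR6 sit at the cell surface and bind bacterial lipids and lipoproteins, with CD14 handing lipopolysaccharide to TLR4, whereas TLR3, TLR7, TLR8 and TLR9 sit in endosomes and bind RNA or DNA. All of these receptors except TLR3 signal through MYD88, TLR3 and TLR4 signal through TRIF (gene Ticam1), and in the fetal liver the receptors are carried mainly by macrophages and other blood cells, with some also in endothelium and hepatocytes.

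Library totals lay between 23129212 and 35819339 counted reads, with a median of 25733946. Levels are given as counts per 1e6 reads (CPM) after scaling by the trimmed mean of M-values (TMM), a method that corrects for library composition. Casp8 was at 27.7 to 33.8 CPM in WT and Tnfr1 KO livers and at 7.82 to 21.9 CPM in both genotypes that lack it, and Mlkl was at 0.729 to 1.22 CPM in Casp8 Mlkl dKO livers against 3.68 to 4.45 CPM in WT and Tnfr1 KO livers. Tnfrsf1a, the gene of TNFR1, was at 45.4 to 77.1 CPM in 10 livers and at 425 CPM in Casp8 Tnfr1 dKO replicate 3, so its whole-gene count does not check that knockout. The hepatocyte gene list (summed 48701 to 197420 CPM) and the erythroid list (7926 to 15506 CPM) were high in every liver.

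Casp8 Tnfr1 dKO replicate 3 and Casp8 Mlkl dKO replicate 1 stood apart. The former correlated with each of the other 10 livers at r of 0.840 to 0.891 in log2 CPM, had the lowest normalization factor (0.757), was the only liver with Xist (3407 CPM, all others at or below 0.569) and held striated muscle genes at a summed 1044 CPM, against 2.14 to 16.4 in the others. The latter had a normalization factor of 0.812 and the highest summed hepatocyte (197420 CPM), macrophage (1130 CPM) and B cell (64.9 CPM) markers. The hepatocyte sum of the other livers was 48701 to 95646 CPM. Where a count, an overlap or a fold change turned on them, its value without them is given too.

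The promoter sequences of the genes called against all 3 control genotypes (Tlr3 and Myd88), of the surface receptors called against WT and Tnfr1 KO livers (Tlr1 and Tlr2) and, for contrast, of Tlr9, which was called in no comparison of all 11 livers, are shown because members that move together may share sequence before their start sites. They come from RefSeq (GRCm38.p6). Windows were examined for Tlr1, Tlr2, Tlr3, Tlr6, Tlr8, Tlr9 and Myd88, and not for Tlr4, Tlr7 or Cd14, so the motif content of these is not known here. Each except that of Tlr3 is the longest stretch of the 250 bases before the start that lies in no exon of GENCODE M21. All are written 5′ to 3′ on the gene's strand. Capitals mark matches on either strand to the core of the interferon-stimulated response element (ISRE), the kappa B consensus or the gamma-activated site (GAS, TTCNNNGAA).
Myd88, minus strand, chr9:119340042-119340268: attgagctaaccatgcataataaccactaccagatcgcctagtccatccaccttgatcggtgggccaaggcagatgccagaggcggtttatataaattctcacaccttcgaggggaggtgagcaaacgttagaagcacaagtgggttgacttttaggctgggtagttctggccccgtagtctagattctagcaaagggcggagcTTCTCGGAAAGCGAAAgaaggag
Tlr3, minus strand, chr8:45410572-45410601, the 30 bases around its match: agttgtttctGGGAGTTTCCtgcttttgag
Tlr2, minus strand, chr3:83841768-83841858: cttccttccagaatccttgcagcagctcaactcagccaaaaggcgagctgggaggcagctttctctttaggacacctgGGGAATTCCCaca
Tlr1, minus strand, chr5:64933564-64933808: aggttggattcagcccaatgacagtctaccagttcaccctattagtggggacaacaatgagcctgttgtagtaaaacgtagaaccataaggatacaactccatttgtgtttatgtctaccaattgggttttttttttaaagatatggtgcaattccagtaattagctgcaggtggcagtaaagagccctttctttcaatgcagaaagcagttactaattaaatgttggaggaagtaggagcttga
Tlr9, plus strand, chr9:106222348-106222597: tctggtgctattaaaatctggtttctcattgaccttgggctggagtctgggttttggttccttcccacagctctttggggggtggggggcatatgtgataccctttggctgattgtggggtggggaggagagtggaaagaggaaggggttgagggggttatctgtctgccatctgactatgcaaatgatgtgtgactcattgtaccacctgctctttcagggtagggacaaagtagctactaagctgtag

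The Myd88 window held an ISRE core at 40 to 31 bases before the start, overlapping a GAS match at 46 to 38 bases. Tlr2 and Tlr3 each held a kappa B match, at 172 to 163 and at 211 to 202 bases before the start. That of Tlr3 lies in a GENCODE exon, so only 30 bases are printed. The match lies within the GENCODE spans of both Tlr3 and the antisense gene Gm45542, and to which of them the exon belongs was not looked up. The Myd88 stretch shown likewise lies within the GENCODE spans of Myd88, Acaa1a and Slc22a14. Elsewhere, the first Tlr6 window held a pair of overlapping ISRE cores, Tlr8 a GAS match and the second Tlr1 window a GAS match inside an exon. Among 32851 promoter windows of 250 bases, 2.98% held the ISRE core, 5% the kappa B consensus and 7.02% the GAS. A match is a run of letters only, and no binding was measured.

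Levels differed among the members before any comparison. In WT livers, per kilobase of the deposited gene width, Myd88 was at 12.2 ± 0.159 CPM per kb (SD, n = 3) and Tlr2 followed at 2.48 ± 0.233. Tlr4 (1.47 ± 0.139), Tlr1 (1.15 ± 0.270), Tlr7 (0.997 ± 0.0704), Cd14 (0.991 ± 0.113), Tlr8 (0.868 ± 0.252) and Tlr3 (0.705 ± 0.154) came next, and from Tlr4 to Tlr3 neighbours in this order differed by less than the sum of their SDs. Tlr9 (0.497 ± 0.232) and Tlr6 (0.479 ± 0.0906) were lowest. The order was different in Casp8 Tnfr1 dKO livers, where Cd14 stood next to Myd88 (11.3 ± 8.72 against 22.8 ± 4.76 CPM per kb, n = 3), although its spread was wide.

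Casp8 Tnfr1 dKO livers held more RNA of most members than WT livers did. With quasi-likelihood fits in edgeR and p-values adjusted over all 17243 genes by Benjamini-Hochberg, 6 of 10 members were higher at an adjusted p under 0.05, against 5.10% of all genes, and none was lower, against 0.702% of all genes. They were Tlr1, Tlr2, Tlr4, Tlr3, Myd88 and Cd14, that is 3 of 4 surface receptors, 1 of 4 endosomal receptors, the adaptor and the co-receptor. The median log2 fold change was 1.61 over the surface receptors and 1.17 over the endosomal ones, against -0.0015 over all genes tested. In whole livers, more cells of a type and more RNA per cell cannot be told apart.

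The count rested in part on single WT libraries, as did the share of all genes called. It was 2 without WT replicate 3 (Tlr1 and Tlr3), against 1.57% of all genes. Without WT replicate 1 or 2 it was 4, against 2.06% and 1.65%. It was 8 without Casp8 Tnfr1 dKO replicate 3, against 7.28% of all genes. With both livers that stood apart left out, a fit chosen after the values had been seen, all 10 members were called higher, against 17.8% of all genes.

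**Figure D1:**
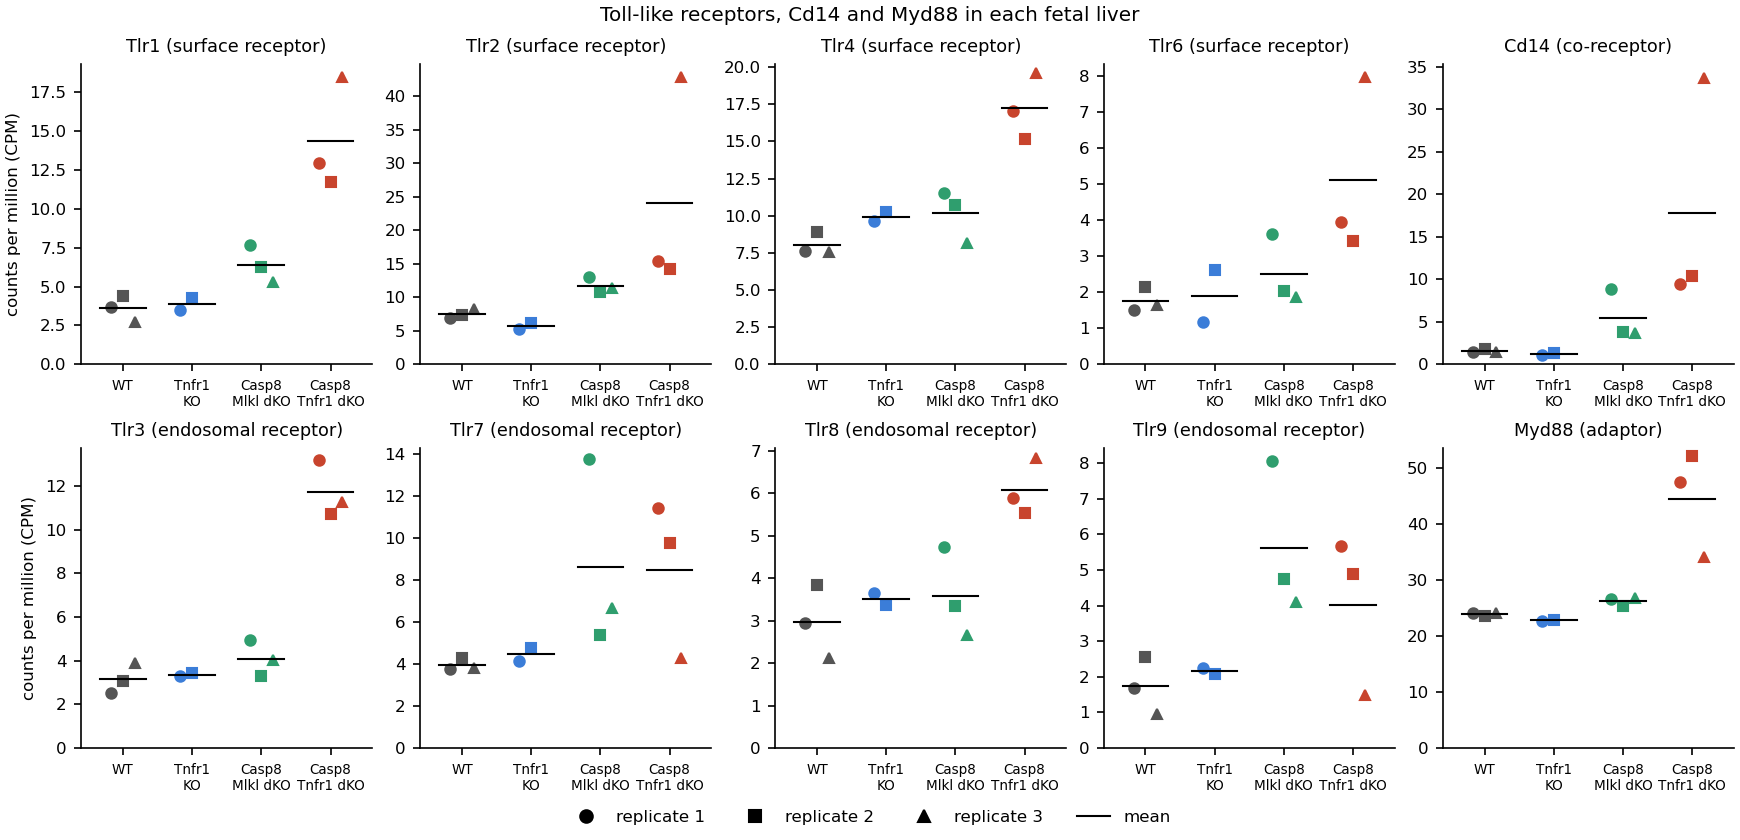
Level of each of the 10 genes in each of the 11 livers, in CPM on a linear axis from 0, by genotype, with replicates as symbols and the group mean as a bar. All 3 Casp8 Tnfr1 dKO livers lie above all 8 control livers for Tlr1, Tlr2, Tlr4, Tlr3, Tlr8, Myd88 and Cd14, while Tlr6, Tlr7 and Tlr9 overlap.

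Against Tnfr1 KO livers, 5 members were higher (Tlr1, Tlr2, Tlr3, Myd88 and Cd14), against 2.05% of all genes, and none lower, against 0.122%. The count was 3 without any 1 WT liver (1.27% to 1.44% of all genes) and 10 without both livers that stood apart, against 13.9% of all genes. Leaving out either Tnfr1 KO liver leaves 1 in that group, so no count is given for it. Against Casp8 Mlkl dKO livers, 2 members were higher (Tlr3 and Myd88), against 1.54% of all genes, and none lower, against 0.116%. This count was 0 without Casp8 Mlkl dKO replicate 2 or 3 (0.415% and 0.425% of all genes). It was 1 without any 1 WT liver (0.913% to 0.942%) or Casp8 Tnfr1 dKO replicate 1 or 2 (2.04% and 1.53%). It was 8 (all but Tlr6 and Tlr9) without both livers that stood apart, against 12.0% of all genes. The 3 comparisons share the Casp8 Tnfr1 dKO livers. Tlr3 and Myd88 were called in all 3, as were 1.30% of all genes.

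**Figure D2:**
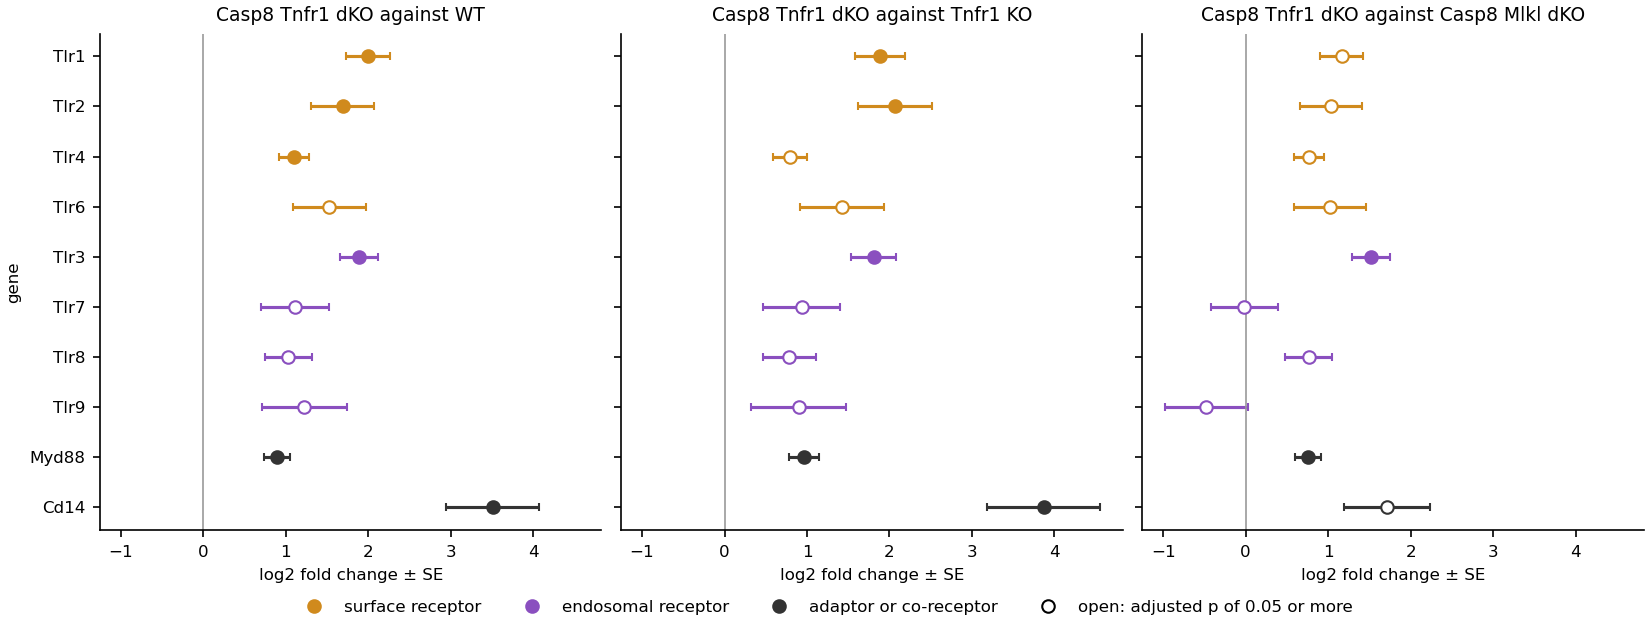
Log2 fold change (x axis, with its standard error) of each gene between Casp8 Tnfr1 dKO livers and each control genotype, all 11 livers fitted together. Filled points have an adjusted p under 0.05, 6 of 10 against WT, 5 against Tnfr1 KO and 2 against Casp8 Mlkl dKO livers.

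Among the endosomal receptors, Tlr3, the receptor of double-stranded RNA, stood out. It was at 2.53, 3.06 and 3.9 CPM in WT livers, 3.28 and 3.42 in Tnfr1 KO, 4.94, 3.28 and 4.05 in Casp8 Mlkl dKO and 13.2, 10.7 and 11.3 in Casp8 Tnfr1 dKO livers. Every Casp8 Tnfr1 dKO liver, including the one that stood apart, was more than 2 times above every control liver. In log2 units it was higher by 1.89 ± 0.23 (SE) against WT livers (edgeR adjusted p = 0.0018), 1.81 ± 0.27 against Tnfr1 KO (adjusted p = 0.00873) and 1.52 ± 0.23 against Casp8 Mlkl dKO (adjusted p = 0.0116). Leaving out 1 liver at a time kept it called in 11 of 11 fits against WT and in 9 of 11 against each of the other genotypes; the exceptions were Tnfr1 KO replicates 1 and 2 (adjusted p = 0.204 and 0.167) and Casp8 Mlkl dKO replicates 2 and 3 (adjusted p = 0.0691 and 0.075). An antisense gene, Gm45542, shares 5.3% of the 50-base stretches of Tlr3 and had 0 counts in every liver.

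Tlr7, a receptor of single-stranded RNA, was at 3.76, 4.27 and 3.82 CPM in WT livers, 4.13 and 4.78 in Tnfr1 KO, 13.8, 5.37 and 6.68 in Casp8 Mlkl dKO and 11.4, 9.77 and 4.27 in Casp8 Tnfr1 dKO livers. The highest level was that of Casp8 Mlkl dKO replicate 1, and Casp8 Tnfr1 dKO replicate 3 lay within the range of the WT livers, so the genotypes overlapped. Its log2 fold change was 1.11 ± 0.41 against WT (edgeR adjusted p = 0.141) and -0.01 ± 0.40 against Casp8 Mlkl dKO livers (adjusted p = 0.988). Without both livers that stood apart it was 1.44 against WT (adjusted p = 7.81e-06) and 0.83 against Casp8 Mlkl dKO (adjusted p = 0.0027), and without Casp8 Tnfr1 dKO replicate 3 alone it was 1.43 against WT (adjusted p = 0.0301).

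Tlr9, the receptor of unmethylated CpG DNA, had a like order of livers. It was at 1.69, 2.56 and 0.946 CPM in WT livers, 2.24 and 2.09 in Tnfr1 KO, 8.06, 4.73 and 4.09 in Casp8 Mlkl dKO and 5.67, 4.88 and 1.48 in Casp8 Tnfr1 dKO livers. Both genotypes without caspase-8 reached levels above all WT and Tnfr1 KO livers, except Casp8 Tnfr1 dKO replicate 3, which held 26 reads. Its fold change on the log2 scale was 1.22 ± 0.52 against WT (edgeR adjusted p = 0.181) and -0.48 ± 0.50 against Casp8 Mlkl dKO livers (adjusted p = 0.656). Without both livers that stood apart these were 1.63 (adjusted p = 0.000437) and 0.27 (adjusted p = 0.583).

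Tlr8, the neighbour of Tlr7 on chromosome X and also a receptor for RNA, was at 2.96, 3.85 and 2.13 CPM in WT livers, 3.66 and 3.38 in Tnfr1 KO, 4.74, 3.34 and 2.67 in Casp8 Mlkl dKO and 5.88, 5.54 and 6.83 in Casp8 Tnfr1 dKO livers. The Casp8 Tnfr1 dKO livers lay above all controls, by a small margin over Casp8 Mlkl dKO replicate 1. The log2 fold change of 1.03 ± 0.29 against WT did not pass the test (edgeR adjusted p = 0.0659), and it did without Casp8 Mlkl dKO replicate 1 (adjusted p = 0.0354). Tlr7 and Tlr8 are X-linked, and Casp8 Tnfr1 dKO replicate 3, the only liver with Xist, held the lowest Tlr7 and the highest Tlr8 of its genotype. The part of sex in either level was not tested.

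Among the surface receptors, Tlr1, which pairs with TLR2 to bind triacylated lipopeptides, had the clearest separation. It was at 3.68, 4.40 and 2.72 CPM in WT livers, 3.50 and 4.29 in Tnfr1 KO, 7.66, 6.27 and 5.31 in Casp8 Mlkl dKO and 13, 11.7 and 18.5 in Casp8 Tnfr1 dKO livers. The livers without caspase-8 lay above those with it, and the Casp8 Tnfr1 dKO livers above all. On the log2 scale Tlr1 was higher by 2.0 ± 0.26 against WT (edgeR adjusted p = 0.00276, called in 11 of 11 fits that left out 1 liver), 1.88 ± 0.31 against Tnfr1 KO (adjusted p = 0.0133; 0.276 and 0.142 without Tnfr1 KO replicate 1 and 2) and 1.16 ± 0.26 against Casp8 Mlkl dKO (adjusted p = 0.0589; 0.044 without Casp8 Mlkl dKO replicate 1).

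Tlr6, which pairs with TLR2 for diacylated lipopeptides and lies beside Tlr1 on chromosome 5, was at 1.5, 2.14 and 1.66 CPM in WT livers, 1.18 and 2.62 in Tnfr1 KO, 3.61, 2.03 and 1.87 in Casp8 Mlkl dKO and 3.93, 3.41 and 7.97 in Casp8 Tnfr1 dKO livers. Casp8 Mlkl dKO replicate 1 lay above Casp8 Tnfr1 dKO replicate 2, whereas the other 7 controls, at 2.62 CPM or less, lay below all 3 Casp8 Tnfr1 dKO livers. No comparison passed the test with all 11 livers (log2 fold change 1.53 ± 0.44 against WT, edgeR adjusted p = 0.0749). Of the 50-base stretches of Tlr6, 12.3% also occur in Tlr1 or another gene, and 15.4% of those of Tlr1 in Tlr6 or another gene, so the values of this pair are less certain.

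Tlr2 was at 6.87, 7.29 and 8.24 CPM in WT livers, 5.30 and 6.15 in Tnfr1 KO, 13, 10.8 and 11.3 in Casp8 Mlkl dKO and 15.3, 14.2 and 42.9 in Casp8 Tnfr1 dKO livers. Replicate 3 held about 3 times the level of the other Casp8 Tnfr1 dKO livers, which lay only just above the Casp8 Mlkl dKO livers. The log2 fold change of 1.69 ± 0.38 against WT livers (edgeR adjusted p = 0.0324) was 0.99 without replicate 3 (adjusted p = 0.00294). Against Casp8 Mlkl dKO livers it was 1.04 ± 0.37 (adjusted p = 0.236) and 0.34 without replicate 3 (adjusted p = 0.33). Against Tnfr1 KO livers it was 2.07 (edgeR adjusted p = 0.0479) and 1.37 without replicate 3 (adjusted p = 0.00163). There it was called in only 4 of 11 fits that left out 1 liver. Against WT livers it was called in 5 of 11 fits that left out 1 liver, and lost without any 1 WT liver (adjusted p = 0.119 to 0.13), either Tnfr1 KO liver (0.0612 and 0.0569) or Casp8 Mlkl dKO replicate 3 (0.0522).

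Tlr4, the lipopolysaccharide receptor, was at 7.64, 8.92 and 7.57 CPM in WT livers, 9.62 and 10.2 in Tnfr1 KO, 11.5, 10.7 and 8.17 in Casp8 Mlkl dKO and 17.0, 15.1 and 19.6 in Casp8 Tnfr1 dKO livers. The Casp8 Tnfr1 dKO livers lay above all controls. Among the controls, the Casp8 Mlkl dKO livers overlapped both other genotypes, whereas both Tnfr1 KO livers lay above all WT livers. On the log2 scale the difference was 1.10 ± 0.18 against WT (edgeR adjusted p = 0.00839, and 0.0559 without WT replicate 3), 0.80 ± 0.21 against Tnfr1 KO (adjusted p = 0.091) and 0.76 ± 0.18 against Casp8 Mlkl dKO livers (adjusted p = 0.0767, and 0.0458 without Casp8 Mlkl dKO replicate 1).

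Cd14 had the largest fold change of the set against WT and Tnfr1 KO livers. It was at 1.5, 1.76 and 1.42 CPM in WT livers, 1.07 and 1.37 in Tnfr1 KO, 8.87, 3.75 and 3.67 in Casp8 Mlkl dKO and 9.45, 10.4 and 33.7 in Casp8 Tnfr1 dKO livers. The livers without caspase-8 all lay above those with it, and Casp8 Mlkl dKO replicate 1 came close to the Casp8 Tnfr1 dKO livers. Log2 fold changes of Cd14 were 3.51 ± 0.57 against WT (edgeR adjusted p = 0.00723), 3.87 ± 0.68 against Tnfr1 KO (adjusted p = 0.0194) and 1.71 ± 0.52 against Casp8 Mlkl dKO livers (adjusted p = 0.161), and without Casp8 Tnfr1 dKO replicate 3 they were 2.67, 3.03 and 0.88 (adjusted p = 0.00257, 0.00459 and 0.304). The call was lost without WT replicate 3 (adjusted p = 0.0521) and, against Tnfr1 KO, without either Tnfr1 KO liver (0.327 and 0.249).

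Myd88, the adaptor of all these receptors except TLR3, was at 24.2, 23.6 and 24.1 CPM in WT livers, 22.7 and 23.0 in Tnfr1 KO, 26.7, 25.5 and 26.9 in Casp8 Mlkl dKO and 47.5, 52.1 and 34.2 in Casp8 Tnfr1 dKO livers. The 8 control livers lay within a narrow range, and the lowest Casp8 Tnfr1 dKO liver, replicate 3, was above all of them. For Myd88, log2 fold changes were 0.90 ± 0.16 against WT (edgeR adjusted p = 0.0111), 0.97 ± 0.18 against Tnfr1 KO (adjusted p = 0.0254) and 0.76 ± 0.16 against Casp8 Mlkl dKO livers (adjusted p = 0.0463), and it was 1.06, 1.13 and 0.92 without replicate 3 (adjusted p = 0.000175, 0.000397 and 0.00091). The call was lost in 3 of 11 fits that left out 1 liver against WT (any WT liver, adjusted p = 0.057 to 0.0658), in 7 against Tnfr1 KO (any WT or Tnfr1 KO liver, or Casp8 Tnfr1 dKO replicate 1 or 2, adjusted p = 0.0518 to 0.399) and in 10 against Casp8 Mlkl dKO (all but Casp8 Tnfr1 dKO replicate 3, adjusted p = 0.0563 to 0.178). Myd88 overlaps Acaa1a, which lies on the opposite strand, shares 7.42% of the 50-base stretches of Myd88 and had 334 to 684 counts, and whether strand was used in counting is not given in the sources used here.

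Endosomal and surface receptors were then set against each other within each liver, as the mean log2 CPM of the 4 endosomal genes minus that of the 4 surface genes. This difference was -0.64, -0.56 and -0.79 in WT livers, -0.23 and -0.64 in Tnfr1 KO, -0.17, -0.60 and -0.41 in Casp8 Mlkl dKO and -0.35, -0.40 and -1.97 in Casp8 Tnfr1 dKO livers. Apart from Casp8 Tnfr1 dKO replicate 3, every liver lay between -0.79 and -0.17, and the genotypes overlapped. The mean of the Casp8 Tnfr1 dKO livers was 0.40 below that of the controls with replicate 3 and 0.13 above it without, so its sign depended on that liver. The mean log2 CPM of the surface receptors itself was 3.28 to 4.24 in Casp8 Tnfr1 dKO livers, above the 1.97 to 3.02 of the controls, whereas that of the endosomal receptors (2.26 to 3.09) overlapped the controls (1.28 to 2.85). This overlap came from Casp8 Mlkl dKO replicate 1 alone, since the other 7 controls were at 2.08 or less.

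**Figure D3:**
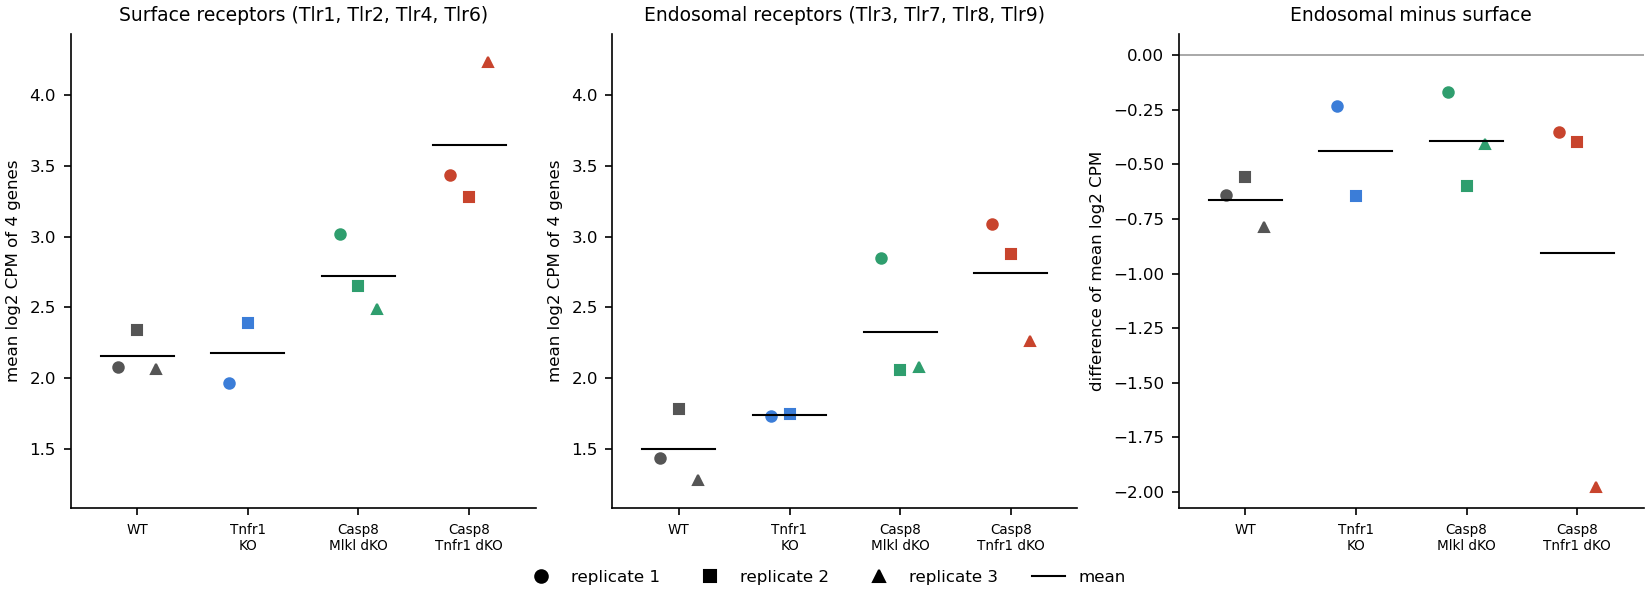
Mean log2 CPM of the 4 surface receptors (left), of the 4 endosomal receptors (middle) and their difference (right) in each liver, by genotype, with the group mean as a bar. Casp8 Tnfr1 dKO replicate 3 is highest for surface receptors and lowest in the difference, at -1.97.

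The control genotypes were compared with each other in the same fit. No member was called between Tnfr1 KO and WT livers, against 0% of all genes. None had an unadjusted p under 0.05 there in edgeR, DESeq2 or limma-voom, where 186, 265 and 210 of all genes did. No member was called between Casp8 Mlkl dKO and WT livers or between Casp8 Mlkl dKO and Tnfr1 KO livers, against 0.00580% of all genes in each. In edgeR 4 members had an unadjusted p under 0.05 in each, as did 971 and 346 of all 17243 genes. In DESeq2 it was 4 and 5 members (1212 and 442 of all genes), none called. In limma-voom it was 3 and 4 members (775 and 322 of all genes), none called.

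By range, 6 members (Tlr1, Tlr2, Tlr7, Tlr9, Myd88 and Cd14) were higher in every Casp8 Mlkl dKO liver than in all 5 livers with caspase-8, as were 5.61% of all genes, and 7 were higher in every Casp8 Tnfr1 dKO liver than in all 8 controls, as were 7.43% of all genes. In a comparison added after the values were seen, of Casp8 Mlkl dKO livers with the average of WT and Tnfr1 KO, no member was called higher, against 0.0812% of all genes. There Cd14 had a log2 fold change of 1.98 ± 0.47 (edgeR adjusted p = 0.376), Tlr9 1.54 ± 0.45 (adjusted p = 0.662) and Tlr7 1.03 ± 0.36 (adjusted p = 0.939). Without both livers that stood apart, Tlr1, Tlr2, Tlr7, Tlr9 and Cd14 were called higher in Casp8 Mlkl dKO than in WT livers, against 3.23% of all genes.

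**Figure D4:**
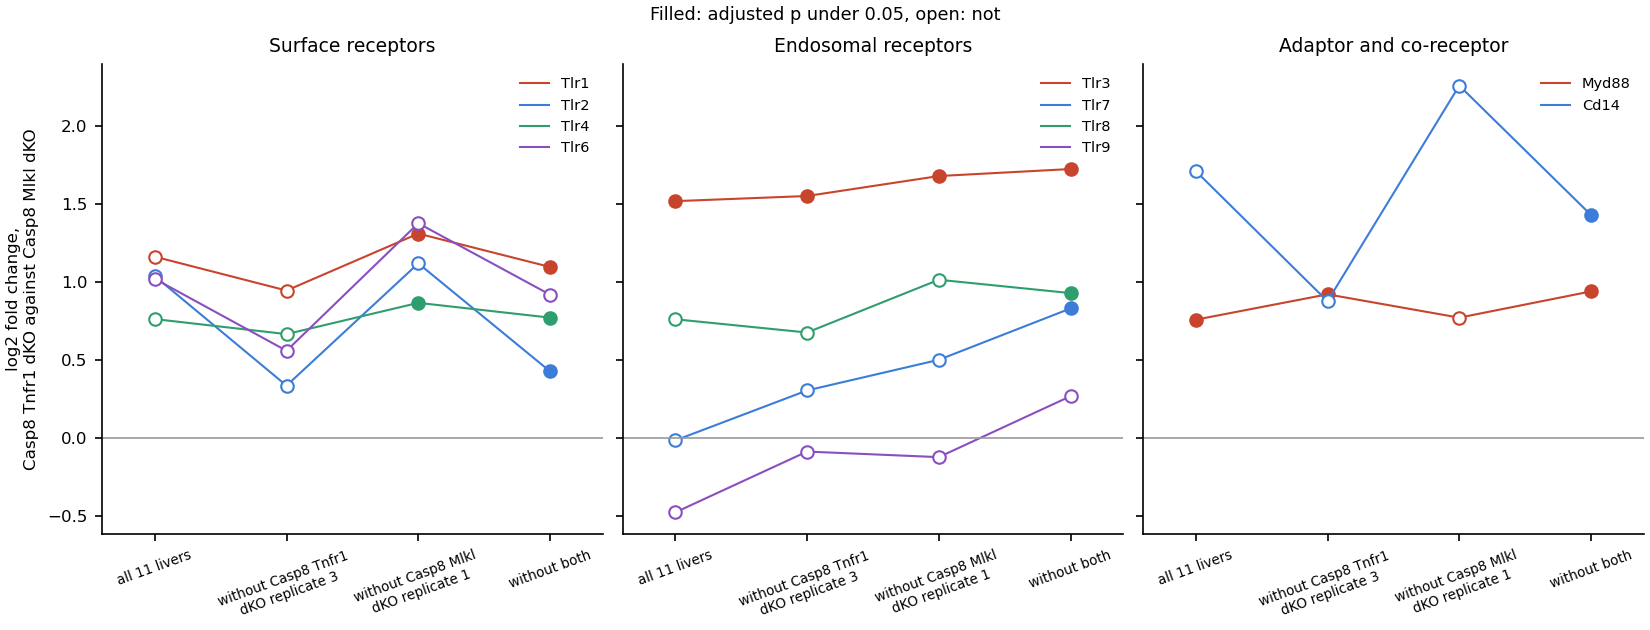
Log2 fold change between Casp8 Tnfr1 dKO and Casp8 Mlkl dKO livers (y axis) for each gene with all 11 livers, without each of the 2 livers that stood apart, and without both. Filled points have an adjusted p under 0.05; Tlr3 lies between 1.52 and 1.73 in all 4 fits, while Tlr7 moves from -0.01 to 0.83.

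Cell type markers differed between the genotypes too, not all in the direction of the members. The macrophage list (12 genes) summed to 301 to 368 CPM in Casp8 Tnfr1 dKO livers, 368 to 462 in WT, 420 to 455 in Tnfr1 KO and 535 to 1130 in Casp8 Mlkl dKO livers. The order of the controls depended on the measure. By mean log2 CPM, Casp8 Mlkl dKO replicates 2 and 3 (3.5677 and 3.6997) lay below all WT and Tnfr1 KO livers (4.002 to 4.3521). Only Casp8 Mlkl dKO replicate 1 (5.2626) lay above them. The Casp8 Tnfr1 dKO livers (2.7093 to 3.253) were lowest for this list by either measure. Against WT livers, 1 of its 12 genes was higher (Cd68, a lysosomal protein; 5.10% of all genes were higher) and 2 were lower, against 0.702% of all genes (Clec4f, a Kupffer cell receptor, and the scavenger receptor Marco), and 3 were lower than in Casp8 Mlkl dKO livers (Adgre1, Marco and Timd4). Clec4f was at 38, 16 and 2 reads in Casp8 Tnfr1 dKO livers and at 135, 7 and 19 in Casp8 Mlkl dKO livers, against 265 to 357 in WT, so it was low in both genotypes without caspase-8. Vsig4, another Kupffer cell marker, was at 0, 2 and 0 reads in the former, 110, 1 and 4 in the latter and 22 to 38 in WT livers. The neutrophil list (7 genes) summed to 2771 to 5359 CPM in Casp8 Tnfr1 dKO livers against 698 to 2053 in the controls, with 4 of 7 genes higher than in WT, and the monocyte list (3 genes) to 125 to 175 against 48.5 to 90.4 CPM, with 2 of 3 higher (F13a1 and Ly6c2). No gene of either list was called against Tnfr1 KO or Casp8 Mlkl dKO livers, against 2.05% and 1.54% of all genes higher. In Casp8 Tnfr1 dKO replicate 3, Mpo (53.4 CPM) and Elane (14.4 CPM) lay below all controls (336 to 599 and 48.7 to 85.9 CPM). There Ltf, Ngp, Csf3r and Mmp8 lay above all controls and Camp within their range. The monocyte sum of Casp8 Tnfr1 dKO replicate 3 was mostly F13a1 (147 CPM), and Ccr2 was at 3.42 CPM there against 15.1 to 29.6 in the controls. As a mean of log2 CPM the monocyte list of that liver (4.54) lay within the range of the controls (3.85 to 4.67). The B cell list (5 genes) was at 9.17 to 12 CPM in Casp8 Tnfr1 dKO livers, below the 13 to 64.9 of the controls. None of its genes was called against any control genotype. As a mean of log2 CPM, Casp8 Tnfr1 dKO replicate 2 (0.844) lay above Casp8 Mlkl dKO replicate 2 (0.803). The sum was highest in Casp8 Mlkl dKO replicate 1, the liver with the most Tlr7 and Tlr9. In Casp8 Mlkl dKO replicates 2 and 3 it was 13.2 and 13 CPM, below the 14.3 to 23.2 of WT livers. Their Tlr7 (5.37 and 6.68 CPM) and Tlr9 (4.73 and 4.09 CPM) nevertheless lay above all WT livers. The endothelial list (6 genes) summed to 340 to 650 CPM in Casp8 Tnfr1 dKO livers and 334 to 518 in the controls. The plasmacytoid dendritic cell list (4 genes) was at 5.75 CPM in Casp8 Tnfr1 dKO replicate 3, of which Cox6a2 gave 5.13, and at 1.30 to 1.92 CPM in the other livers. Siglech of that list was at 0 to 0.413 CPM in Casp8 Tnfr1 dKO livers, below the 0.545 to 1.05 of the controls, as were 3.32% of all genes by range. Its counts were low and it was not called. The part of these cells in the levels of the members was not tested.

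**Figure D5:**
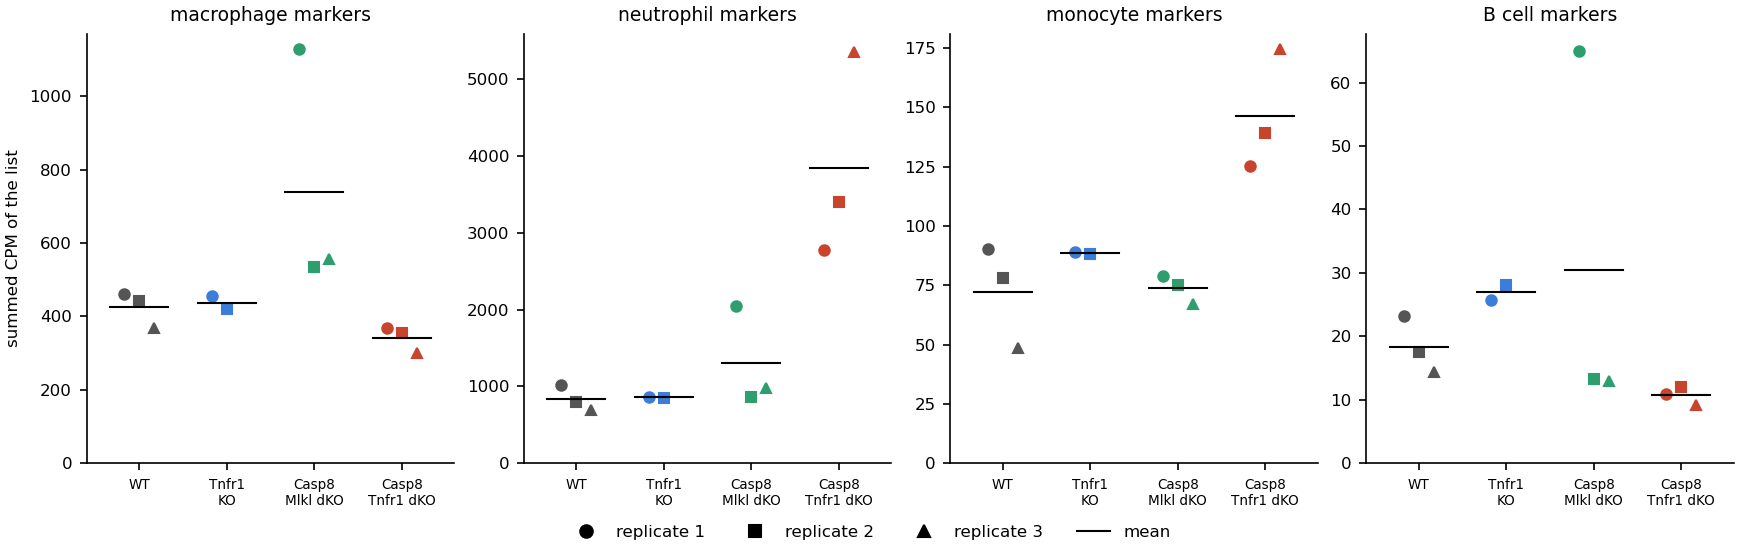
Summed CPM of the macrophage, neutrophil, monocyte and B cell marker lists in each liver, on linear axes from 0, by genotype, with the group mean as a bar. In Casp8 Tnfr1 dKO livers the neutrophil sum (2771 to 5359) and the monocyte sum (125 to 175) lie above all controls and the macrophage sum (301 to 368) does not.

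Of the other genes of the pathway, 56 of 58 listed could be tested (Ifnb1 and Il12b were too low). In Casp8 Tnfr1 dKO livers 15 were higher than in WT, 7 than in Tnfr1 KO and 3 than in Casp8 Mlkl dKO livers, against 5.10%, 2.05% and 1.54% of all genes, and none was lower, against 0.702%, 0.122% and 0.116%. The median log2 fold change over the list was 0.43, 0.37 and 0.19 in these comparisons. The first count was 7 without WT replicate 1 (2.06% of all genes) and 5 without replicate 2 or 3 (1.65% and 1.57%). The second was 4 without WT replicate 2 (1.27%). It was 14 without Casp8 Mlkl dKO replicate 1 (3.62%) or Casp8 Tnfr1 dKO replicate 3 (4.46%). The third was 9 without Casp8 Mlkl dKO replicate 1 (3.03%). Without Casp8 Tnfr1 dKO replicates 1, 2 and 3 it was 6, 5 and 8 (2.04%, 1.53% and 2.83%).

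The genes called against all 3 controls were Tlr13, Irf7 and Cxcl10. Tlr13, an endosomal receptor of bacterial ribosomal RNA, was at 3.75 to 5.24 CPM in WT livers, 5.01 and 6.34 in Tnfr1 KO, 5.63 to 11.2 in Casp8 Mlkl dKO and 21.2, 19.0 and 20.2 in Casp8 Tnfr1 dKO livers. Its log2 fold changes were 2.19 against WT, 1.82 against Tnfr1 KO and 1.40 against Casp8 Mlkl dKO (edgeR adjusted p = 0.00218, 0.0186 and 0.0366). Like Tlr3, it was high in all 3 Casp8 Tnfr1 dKO livers.

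Irf7, a transcription factor of the interferon response that acts below the endosomal receptors, was at 7.14 to 7.71 CPM in WT, 7.30 and 8.81 in Tnfr1 KO, 19.6 to 46.4 in Casp8 Mlkl dKO and 156 to 227 in Casp8 Tnfr1 dKO livers. The chemokine gene Cxcl10 was at 4.81 to 5.37, 2.54 and 3.47, 12.3 to 15.6, and 92.6 to 125 CPM in the same order. In both, the Casp8 Mlkl dKO livers lay between the livers with caspase-8 and the Casp8 Tnfr1 dKO livers.

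By role, the 15 genes higher than in WT held 1 of 5 other receptors, 2 of 5 endogenous ligands (S100a8 and S100a9, proteins of neutrophil granules and cytosol), 1 of 5 other adaptors (Pik3ap1), 2 of 16 kinases and ligases (Irak4 and Ikbke), 1 of 3 transcription factors, 3 of 7 inhibitors (Irak3, Nfkbia and Tnfaip3) and 5 of 7 tested response genes (Cxcl10, Il1b, Nfkbiz, Ptgs2 and Tnf), and genes are named here after their values were seen. None of 4 ligand handling or 4 trafficking genes was called.

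Of the other adaptors all but Pik3ap1 missed the threshold against WT. Ticam1, which encodes TRIF, was at 28.4, 29.6 and 32.7 CPM in Casp8 Tnfr1 dKO livers and 25.6 to 39.5 in the controls, where the highest was Casp8 Mlkl dKO replicate 1 and the other 7 were at 28.3 or less, below all 3 (log2 fold change 0.16 against WT, edgeR adjusted p = 0.547). Ticam2 (1.88 to 3.23 against 1.26 to 2.68 CPM) and Tirap (18.5 to 24.2 against 14.5 to 36.0 CPM), the bridging adaptors of TLR4 and TLR2, overlapped. Ly96, the MD-2 partner of TLR4 (2.34 to 5.13 against 1.51 to 2.51 CPM), and Unc93b1, the chaperone that takes endosomal receptors to their compartment (57.8 to 66.9 against 34.4 to 84.4 CPM), overlapped with Casp8 Mlkl dKO replicate 1 only, since the other 7 controls were at 2.13 and 44.3 CPM or less. Neither was called against any control.

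A pair of receptors lay the other way, as did 3.32% of all genes by range. Tlr5, the flagellin receptor, was at 6.10, 4.64 and 2.73 CPM in Casp8 Tnfr1 dKO livers, below the 6.90 to 12.1 of the controls, and Tlr12 at 1.54 to 3.13 CPM, below 3.23 to 9.64. Neither was called (log2 fold change of Tlr5 -0.66 against WT, edgeR adjusted p = 0.178, and of Tlr12 -0.84, adjusted p = 0.163).

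The gene outside the set whose centred log2 CPM differed least from that of each member over the 11 livers was taken as its nearest. For Tlr3 it was Cmpk2, an interferon-induced nucleotide kinase (root mean square difference 0.20), for Myd88 it was Elmo1 (0.0959), for Tlr2 Bcl6b (0.20) and for both Tlr4 and Tlr8 Gk5 (0.12 and 0.16). Tlr6 was nearest to H2afy2 (0.21), Tlr7 to Apobec1 (0.22), Tlr9 to the transcription factor gene Pou2f2 (0.28) and Cd14 to Ifi27 (0.30). The 11 livers share depth, scaling and cell content, and these are descriptions of likeness over the livers.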

How the data were processed

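Total RNA of 11 single E15.5 livers was sequenced as single-end reads. Per the study's methods, the authors aligned reads to GRCm38 with GSNAP. The counts, as the authors deposited them, are raw numbers of reads per Ensembl gene, exons only, and totals are 23129212 to 35819339. The RPKM values that the authors deposited beside them, and the gene width, which was used for levels per kilobase, were not altered, and RPKM was not tested. The counting tool and its use of strand are not given in the sources used here, and the methods and the labels name different library kits and sequencers.

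Genes were named from GENCODE M21. Genes kept by filterByExpr (minimum count 10) were scaled by TMM, and the 4 genotypes were fitted together with edgeR 4.0.16 (R 4.3.3) by its quasi-likelihood test, with genotype as the only factor (prior degrees of freedom 2.92, since a small group shares the estimate of spread). Calls are Benjamini-Hochberg adjusted p under 0.05. Log2 CPM used a prior count of 2. Replicates are separate livers of a genotype, and nothing says which came from 1 litter. Reads carry no molecular identifiers, so depth limits counting error only. No 2 livers were the same library (chi-square per degree of freedom at least 6.03).

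Every member was named in every liver, with genes of the pathway called against all 3 controls, 7 others fixed by name (Tlr12 was named after its values were seen), genes that check the labels, and the nearest gene of each member, of which that of Tlr1 is not reported here. The members and lists were chosen with earlier results of these data known. Alternatives were DESeq2 1.42.0 (size factors, and its Wald test), limma-voom (limma 3.58.1), hemoglobin genes left out of library sizes, other filters, only 2 genotypes, the replicate number as a block and each liver left out. Quality weights in limma-voom, leaving out both livers with the lowest normalization factors, and 1 comparison were added after the values were seen. On simulated data for Casp8 Tnfr1 dKO against WT, edgeR recovered 71 of 100 genes changed 4-fold and 10 of 100 changed 2-fold among 16997. No other gene was changed in that simulation, whereas 879 genes were called higher and 121 lower in the data. The recovery therefore describes that setting only.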

Additional observations from a re-analysis of the deposited data

How the results depend on the processing

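Among refits of the members' fold changes, 514 kept their direction and side of the threshold, 63 lost the call, 41 gained it and 12 turned in sign. These 12 were Tlr7 and Tlr9 in Casp8 Tnfr1 dKO against Casp8 Mlkl dKO livers, whose main values were not called (-0.01 and -0.48). Tlr7 was 0.0029 with hemoglobin genes left out of library sizes, 0.091 with limma-voom, 0.0074 with a mean of at least 10 counts, -0.27 to 0.50 without 1 liver, 0.75 with quality weights and 0.83 without both livers with low normalization factors. Tlr9 was 0.27 in each of the last 2 fits.

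Against WT livers the number of members higher (6) was 10 with quality weights (17.0% of all genes) and 10 without both livers (17.8%). Without 1 liver it was 2 to 8 (1.57% to 7.61%). Against Tnfr1 KO (5) it was 10 with quality weights (14.6%) and 10 without both livers (13.9%). It was 0 with only 2 genotypes (0.316%) and 1 with the replicate block (1.06%). Without 1 liver of another genotype it was 3 to 5 (1.27% to 4.46%). Against Casp8 Mlkl dKO (2) it was 9 with quality weights (11%) and 8 without both livers (12.0%). It was 5 with DESeq2's Wald test (4.11%) and 1 without a filter (1.32%). With only 2 genotypes it was 0 (0.0612%), with the replicate block 1 (0.754%) and without 1 liver 0 to 3 (0.415% to 3.03%). No member was lower in any fit. Members called between Casp8 Mlkl dKO and WT (0) were 4 with quality weights (3.20% of all genes higher) and 5 without both livers (3.23%), and against Tnfr1 KO (0) 3 (1.37%) and 2 (1.19%).

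With the same shares of all genes, pathway genes higher than in WT (15) were 29 with quality weights, 28 without both livers and 5 to 18 without 1 liver. Against Tnfr1 KO (7) they were 27 and 27, 15 with the Wald test, 11 without a filter, 2 with only 2 genotypes and 2 to 14 without 1 liver. Against Casp8 Mlkl dKO (3) they were 20 and 20, 8 with the Wald test, 6 with limma-voom, 7 without a filter, 1 with only 2 genotypes and 2 to 9 without 1 liver. The endosomal minus surface difference between Casp8 Tnfr1 dKO and control livers (-0.40) was -0.68 to 0.13 without 1 liver. The cause of these changes was not tested.

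Same-numbered livers of different genotypes deviated together at r of -0.30 to 0.28, so the numbers pair nothing known. The replicate block changed the counts as given above (5 members against WT, where 3.09% of all genes were higher). Counts behind some members were low, in WT livers 24 to 61 for Tlr9, 36 to 42 for Cd14 and 39 to 51 for Tlr6.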
